A study of Mus musculus with 4 samples.

Results

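A set of 50 genes of apoptosis, of the p53 response and of TNF receptor signalling was taken by their symbols from the 52636 Ensembl genes counted in 4 RNA-seq libraries of embryonic mouse kidney. All 50 were found, and 49 passed the filter on low counts and were tested among 19041 genes. The libraries were made from tdTomato+ cells, which by design are descendants of cells with an active *Eya1* locus. The cells were sorted from kidneys at E12.5–E12.75, 48 h after tamoxifen was first given to the pregnant females. Control embryos carried Eya1CreER and the R26-tdTomato reporter, and *Eya1*cKO embryos carried floxed Eya1 (Eya1fl/fl) in addition, with 2 libraries of 5000 cells for each genotype. Both genotypes therefore carried the CreER driver and the reporter and received tamoxifen. The driver was designed to act in cells in which *Eya1* is transcribed, and whether it acted only there was not tested. The kidneys were pooled by genotype before sorting, so the 2 libraries of a genotype are portions of combined cells and *P* values measure the spread between such portions only.

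In vertebrate cells, apoptosis is started along 2 routes. Damage or stress stabilizes p53, a transcription factor held low by Mdm2 and Mdm4, and p53 induces cell cycle inhibitors and BH3-only proteins; these neutralize Bcl2 and its pro-survival relatives, so that Bax and Bak1 open the outer mitochondrial membrane and cytochrome *c* assembles Apaf1 and caspase 9. Ligands of the TNF family act from outside through death receptors, whose adaptors Fadd, Tradd, Ripk1 and the Traf proteins lead either to caspase 8 or to NF-κB and survival. In the developing kidney, the cap mesenchyme that holds the nephron progenitor cells (NPCs) depends on survival signals from the ureteric bud, and mice lacking Bcl2 develop cystic, underdeveloped kidneys.

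The genotype label was first checked on *Eya1* itself, for which 6612 and 6420 reads were counted in the controls against 377 and 219 after deletion (log2 fold change -3.60 ± 0.18 SE). Reads counted on genes ranged from 17457452 to 37999342 per library, with fewer in both *Eya1*cKO libraries than in either control. The share of recorded reads that aligned but fell on no annotated gene was 12.9% and 13.9% in the controls and 20.9% and 22.7% in *Eya1*cKO. Unaligned reads were 6.32% and 6.69% against 12.7% and 12.9%. Marker genes of several cell types moved with genotype as well. The summed level of 6 NPC markers, *Eya1* among them, was 557 to 592 CPM (the usual CPM scale, with library totals adjusted by TMM factors) in the controls and 39.4 to 68.5 CPM in *Eya1*cKO, and all 6 fell in the test. All 6 markers rose for podocytes (505 to 515 against 2352 to 2357 CPM), endothelium (536 to 548 against 918 to 985 CPM), adrenal cortex (11.4 to 18.7 against 653 to 677 CPM) and chromaffin and sympathetic cells (4.55 to 7.88 against 508 to 538 CPM), and 4 of 6 rose for renal stroma (1819 to 1826 against 3204 to 3496 CPM). *Col1a1* held the largest part of the stroma sum, with a mean of 1067 CPM in the controls and 2367 CPM in *Eya1*cKO. Of the stroma markers that did not pass, *Meis1* overlapped between genotypes and *Ntn1* was lower in both *Eya1*cKO libraries. Of 6 ureteric bud markers 2 fell (231 to 239 against 141 to 144 CPM). The sums of the 6 macrophage and leukocyte markers overlapped between genotypes (95.9 to 97.1 against 91.3 to 112 CPM), and 6 erythroid markers summed to at most 1.28 CPM, with *Hba-a1* and *Hba-a2* at 0. The part of these differences in the results below was not tested, and in such bulk libraries fewer cells of a type cannot be told apart from less RNA per cell.

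Among the 49 members tested, 4 were lower and 1 was higher in *Eya1*cKO with an adjusted *P* under 0.05 in edgeR's quasi-likelihood test. *Trp53* itself, *Phlda3*, *Bcl2* and *Traf1* fell, and *Ripk1* rose. These 5 members are 10.2% of those tested, against 9.56% of all genes tested. At an unadjusted *P* under 0.05 there were 15 of the 49 members and 28.8% of all genes. Over all genes 5.15% rose and 4.41% fell. The median log2 fold change (*Eya1*cKO over control) was 0.08 for the members and 0.02 for all genes tested, and the median of its absolute value was 0.38 and 0.51. With 1 library left out at a time, the median ranged from 0.0229 to 0.128 for the members. For all genes tested in those fits it ranged from -0.157 to 0.0594. Both *Eya1*cKO libraries lay outside the range of the controls for 27 members (15 above, 12 below), or 55.1%, against 55.3% of all genes tested (25.3% above, 30% below). Among the genes of highest mean level, from 36.6 CPM upwards, 3 of 22 members (13.6%) and 20.1% of all genes passed. Among the genes from 3.73 CPM up to that level, these shares were 2 of 21 members (9.52%) and 6.98%, and under 3.73 CPM they were 0 of 6 members and 1.61%. For 24 of the 44 members that did not pass, the 95% interval of the log2 fold change lay wholly between -1 and 1, whereas for the other 20 it reached a 2-fold change or more.

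**Figure D1:**
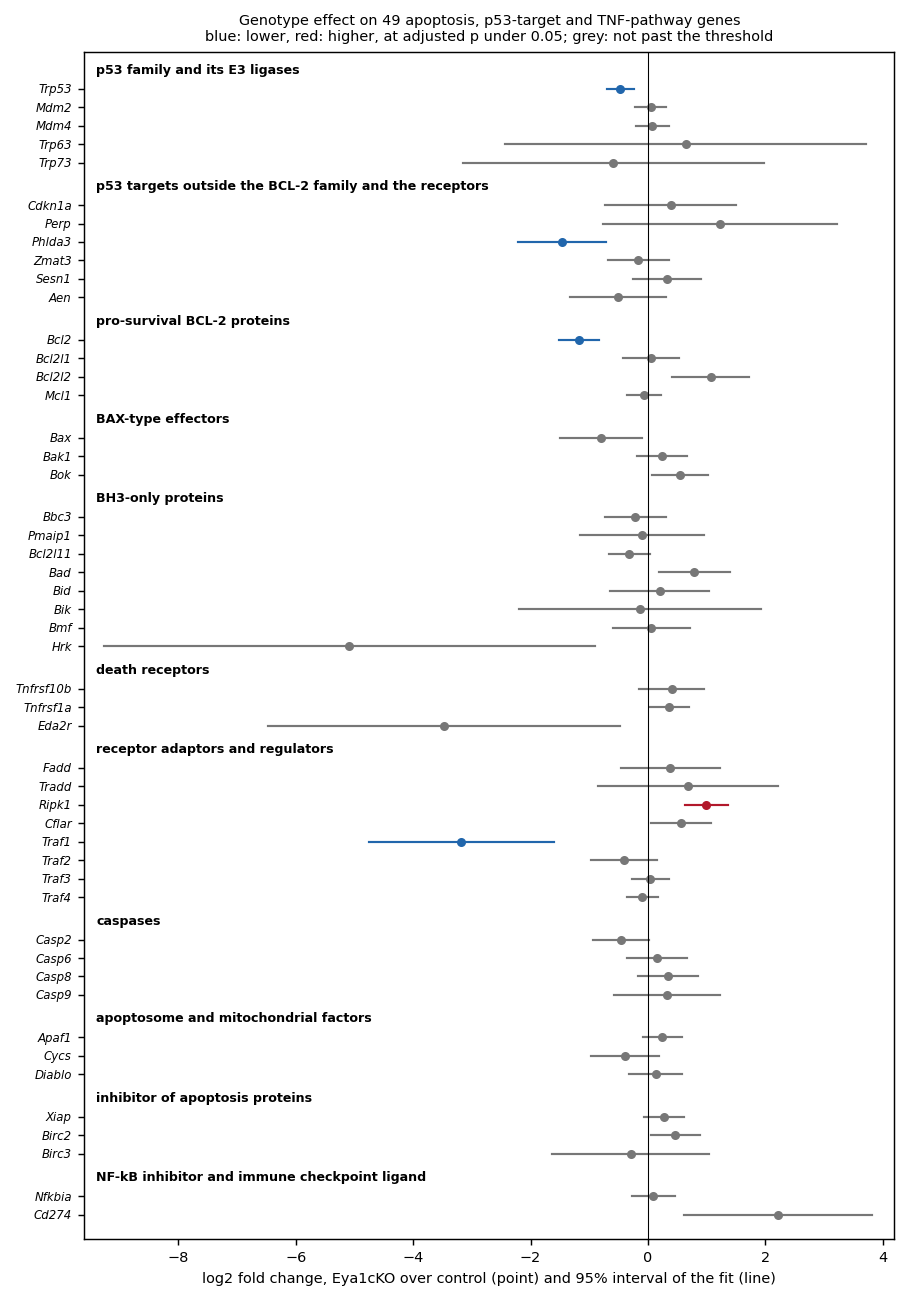
Log2 fold change (*Eya1*cKO over control) of the 49 members tested, grouped by role, with the 95% interval derived from the edgeR fit as a line. Blue and red mark the members past the threshold. The 4 blue points (*Trp53*, *Phlda3*, *Bcl2*, *Traf1*) lie below 0 and the red point (*Ripk1*) above it, and the widest intervals belong to the members of low count.

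Promoter sequence from RefSeq (GRCm38.p6, 250 bases before to 50 after an annotated start) was at hand for 43 of the 50 members. The stretches of the 5 members that passed, from 120 bases before to 50 after the start, are shown because these are the members called between genotypes. Capitals mark matches, on either strand, to the p53 decamer consensus, to the 10-base NF-κB consensus or to the GC box GGGCGG. *Ripk1* has 2 annotated starts, of which the upstream one is shown.
Trp53, chr11:69580239-69580408, plus strand: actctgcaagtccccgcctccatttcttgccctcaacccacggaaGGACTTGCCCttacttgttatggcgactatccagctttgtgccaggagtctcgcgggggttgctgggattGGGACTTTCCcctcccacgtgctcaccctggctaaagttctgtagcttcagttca
Phlda3, chr1:135765965-135766134, plus strand: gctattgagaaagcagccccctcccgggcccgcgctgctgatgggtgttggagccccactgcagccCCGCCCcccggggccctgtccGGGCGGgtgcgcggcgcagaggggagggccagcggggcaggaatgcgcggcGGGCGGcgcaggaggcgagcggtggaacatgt
Bcl2, chr1:106714241-106714410, minus strand: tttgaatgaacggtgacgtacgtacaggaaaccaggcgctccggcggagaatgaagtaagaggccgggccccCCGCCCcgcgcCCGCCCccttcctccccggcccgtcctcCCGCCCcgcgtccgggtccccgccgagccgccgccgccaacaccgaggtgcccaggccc
Traf1, chr2:34961723-34961892, minus strand: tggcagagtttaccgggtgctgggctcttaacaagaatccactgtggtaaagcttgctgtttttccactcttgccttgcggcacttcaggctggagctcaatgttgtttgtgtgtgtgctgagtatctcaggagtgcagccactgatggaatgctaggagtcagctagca
Ripk1, chr13:34002243-34002412, plus strand: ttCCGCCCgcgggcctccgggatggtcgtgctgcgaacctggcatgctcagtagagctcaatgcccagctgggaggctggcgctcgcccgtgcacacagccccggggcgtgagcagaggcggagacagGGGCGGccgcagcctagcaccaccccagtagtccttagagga
The *Trp53* stretch holds 1 p53 decamer and, across the start, 1 NF-κB match, and it holds no GC box. *Phlda3*, *Bcl2* and *Ripk1* show GC boxes and neither of the 10-base motifs, and *Traf1* shows none of the 3 motifs. In the full windows, G and C made up 76% of the *Bcl2* sequence with 44 CpG dinucleotides and 48.7% of the *Traf1* sequence with 4, where the medians over 32851 windows of all genes were 52.7% and 7.

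Members that did not pass also carry such matches, and 5 are shown, 3 with the p53 decamer and 2 with the NF-κB match.
Cdkn1a, chr17:29090881-29090962, plus strand: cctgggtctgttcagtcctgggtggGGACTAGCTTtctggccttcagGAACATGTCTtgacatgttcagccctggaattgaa
Mdm2, chr10:117710910-117710969, minus strand: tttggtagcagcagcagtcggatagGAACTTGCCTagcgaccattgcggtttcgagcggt
Bax, chr7:45467065-45467124, minus strand: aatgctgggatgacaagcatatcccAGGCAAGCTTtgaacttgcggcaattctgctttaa
Nfkbia, chr12:55492642-55492701, minus strand: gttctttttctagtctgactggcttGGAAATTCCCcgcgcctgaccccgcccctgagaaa
Traf3, chr12:111166335-111166394, plus strand: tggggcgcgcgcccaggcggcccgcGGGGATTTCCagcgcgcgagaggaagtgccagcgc
In these lines capitals mark only the p53 decamers (*Cdkn1a*, *Mdm2*, *Bax*) or the NF-κB match (*Nfkbia*, *Traf3*). A p53 decamer was found for 8 of the 43 members (18.6%) and for 9.55% of 27025 genes, an NF-κB match for 6 (14%) and for 5.14%, and a GC box for 34 (79.1%) and for 38.2%. By window rather than by gene, 8.36%, 4.51% and 35.7% of all windows held them. The members were picked partly as p53 and NF-κB responders, and a match of letters does not show a bound site.

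p53, encoded by *Trp53*, is the central transcription factor of the damage response. *Trp53* (chromosome 11, 69580359 to 69591873 of GRCm38) was at 169 and 179 CPM in control 1 and 2 and at 124 and 128 CPM in *Eya1*cKO 1 and 2. The 2 genotypes did not overlap, and the libraries of each lay close together. The log2 fold change was -0.47 ± 0.10 (SE; edgeR adjusted *P* = 0.033), and 5 of the 9 alternatives run on all 4 libraries kept the call, with adjusted *P* values from 0.004 to 0.11. The genes of its 2 negative regulators were near equal in both genotypes. *Mdm2*, the E3 ubiquitin ligase of p53 and itself a p53 target, was at 110 and 114 CPM in the controls and at 119 and 111 CPM in *Eya1*cKO (log2 fold change 0.04, 95% interval -0.22 to 0.31), and *Mdm4* had a log2 fold change of 0.08 (95% interval -0.20 to 0.36). The relatives *Trp63* and *Trp73*, which serve epithelial and neural development, were scarcely detected. *Trp63* had 38 and 15 reads in the controls and 0 and 46 in *Eya1*cKO, and *Trp73* had 41 and 62 against 38 and 0, so that the *Eya1*cKO library without reads was a different one for each gene.

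**Figure D2:**
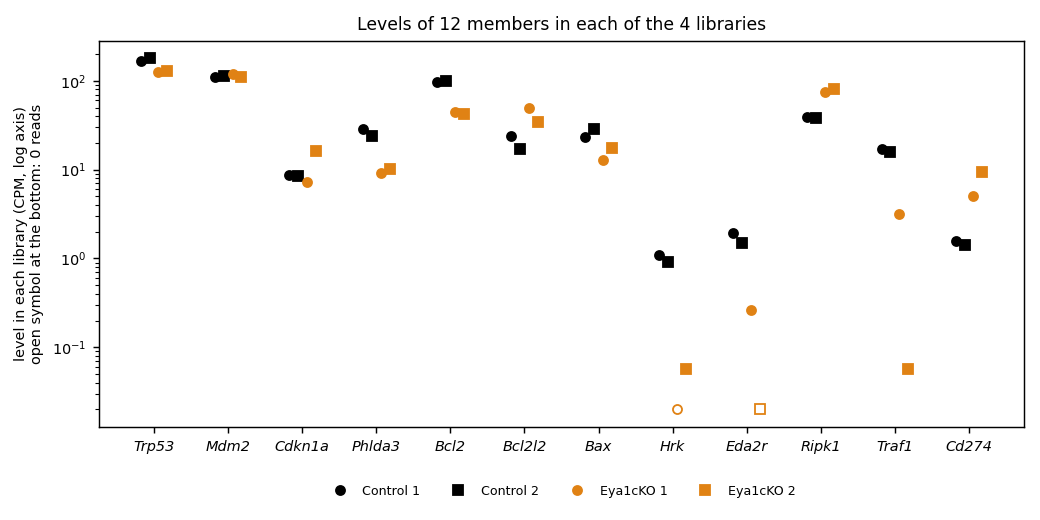
Level of 12 members in each of the 4 libraries, in CPM on a log axis; black symbols are controls, orange symbols *Eya1*cKO, and open symbols at the bottom stand for 0 reads. *Bcl2*, *Trp53* and *Phlda3* show 2 tight pairs with the controls above, *Ripk1* shows the opposite, and *Traf1*, *Hrk* and *Eda2r* have scattered *Eya1*cKO libraries at few reads.

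Of the 6 p53 targets outside the BCL-2 family and the receptors, 1 fell and 5 did not pass, where 4.41% of all genes fell. *Phlda3* (chromosome 1, 135766119 to 135769136), whose product competes with Akt for membrane lipids and so restrains survival signalling, was counted with 1004 and 896 reads in the controls against 205 and 176 in *Eya1*cKO. This was 26.3 ± 3.41 CPM in the controls and 9.55 ± 0.679 CPM in *Eya1*cKO (SD, n = 2 libraries each). Both *Eya1*cKO libraries were far below both controls, with a log2 fold change of -1.47 ± 0.32 (SE; edgeR adjusted *P* = 0.034) and adjusted *P* values from 7.2e-04 to 0.10 over the alternatives on all 4 libraries. *Cdkn1a*, which encodes the cell cycle inhibitor p21 and is the most widely used p53 readout, was at 8.62 and 8.52 CPM in the controls and at 7.35 and 16.1 CPM in *Eya1*cKO. One *Eya1*cKO library was therefore below and the other above the controls, and the log2 fold change of 0.39 had a 95% interval from -0.72 to 1.5. Without *Eya1*cKO 1 it was 0.90 and without *Eya1*cKO 2 it was -0.24. *Aen*, an exonuclease of the apoptotic nucleus, was at 19.1 and 47.1 CPM in *Eya1*cKO against 42.6 and 47.6 CPM in the controls, with the first below the control range and the second inside it. *Perp*, a desmosomal membrane protein, was at 8.54 and 1.25 CPM in *Eya1*cKO against 2.66 and 1.90 CPM in the controls. The remaining pair showed less spread. *Zmat3*, an RNA-binding p53 target, had a log2 fold change of -0.16 (95% interval -0.68 to 0.36) and *Sesn1*, which limits mTORC1 signalling, one of 0.32 (-0.26 to 0.91).

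Of the 4 pro-survival BCL-2 genes, *Bcl2* fell and the other 3 did not pass, where 4.41% of all genes fell. *Bcl2* (chromosome 1, 106538178 to 106714274), the founding member of the family, was at 95.8 and 98.4 CPM in the controls and at 43.9 and 42.1 CPM in *Eya1*cKO. The libraries of each genotype differed by less than the gap between genotypes, and the log2 fold change was -1.17 ± 0.14 (SE; edgeR adjusted *P* = 0.0052), or 2.25-fold lower. It was the only member that passed in all 9 alternatives on the 4 libraries, with log2 fold changes from -1.19 to -1.13, and in the fit with the replicate number as a block it was the only member to pass. Of its exonic length, 6.09% lies opposite an antisense gene. *Bcl2l2*, which encodes Bcl-w, was higher in both *Eya1*cKO libraries, at 49.2 and 34.4 CPM against 23.9 and 16.9 CPM. The log2 difference of 1.07 ± 0.28 did not pass (SE; edgeR adjusted *P* = 0.059), although it passed in DESeq2's Wald test and with at least 10 counts in every library. Exons of *Bcl2l2* share 13.3% of their length with another gene on the same strand, so its count is uncertain. *Bcl2l1*, which encodes Bcl-xL, overlapped between genotypes (73.6 and 67.3 against 86.6 and 56.3 CPM), and so did *Mcl1*, a short-lived pro-survival protein (403 and 418 against 443 and 335 CPM).

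Compared per length, in CPM per kb of exon, *Mcl1* was the most abundant pro-survival transcript at 120 in the controls and 114 in *Eya1*cKO, above *Bcl2l1* at 15.4 and 15.6, *Bcl2* at 10.6 and 4.7 and *Bcl2l2* at 4.56 and 9.36. *Mcl1* made up from 78.7% to 80.7% of the summed pro-survival level in every library. *Bcl2* made up 6.98% and 7.09% of it in the controls and 2.92% and 3.75% in *Eya1*cKO. The sum over the 4 pro-survival genes was 150 and 152 CPM per kb in the controls and 164 and 123 in *Eya1*cKO, so that the controls lay between the *Eya1*cKO libraries. The order of *Bcl2* and *Bcl2l2* was exchanged between genotypes while the sum overlapped.

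**Figure D3:**
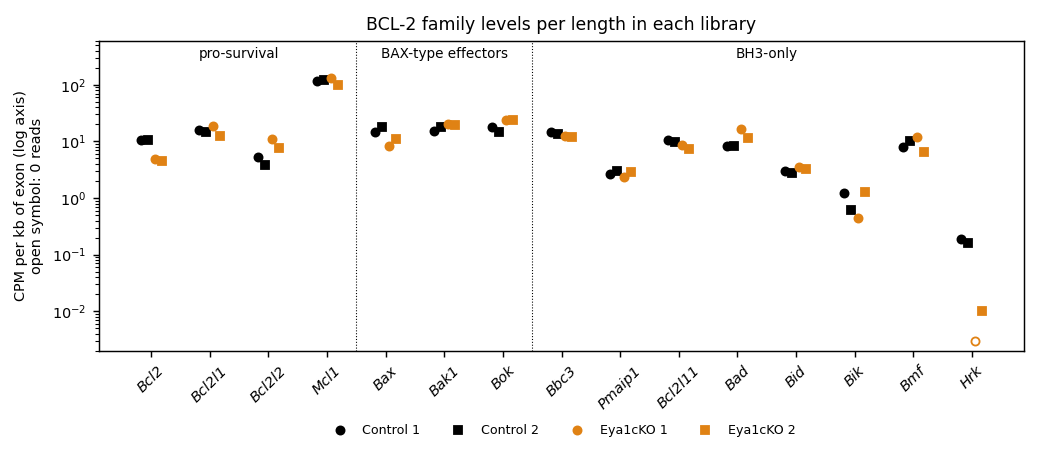
Levels of the 15 BCL-2 family members in each library, in CPM per kb of exon on a log axis, with pro-survival genes, effectors and BH3-only genes from left to right. *Mcl1* stands above the others in all 4 libraries, *Bcl2* is lower in both *Eya1*cKO libraries, and *Hrk* is near the bottom with 0 and 1 reads there.

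None of the 3 effectors and none of the 8 BH3-only genes passed the adjusted threshold, and 4 of these 11 had an unadjusted *P* under 0.05 (*Bax*, *Bok*, *Bad* and *Hrk*), against 28.8% of all genes; DESeq2's Wald test, in which 15.9% of genes passed, called none of the 11 either. The 3 effectors, which form pores in the mitochondrial outer membrane, did not share a direction. *Bax* was at 23.3 and 28.4 CPM in the controls and at 13 and 17.3 CPM in *Eya1*cKO (log2 fold change -0.80, edgeR adjusted *P* = 0.13), and *Bok* at 33.6 and 27.2 against 44 and 44.7 CPM (0.55, edgeR adjusted *P* = 0.13). *Bak1* was at 37.3 and 42.6 against 48.5 and 46.1 CPM. For all 3 the genotypes did not overlap, with *Bax* below and *Bok* and *Bak1* above the controls, where 55.3% of all genes did not overlap. Another gene on the same strand shares 12.2% of the exonic length of *Bax*, and 1 on the opposite strand 18.2% of that of *Bak1*, which leaves both counts uncertain. The summed level of the 3 per length was 48.5 and 50.5 in the controls and 52.3 and 54.4 CPM per kb in *Eya1*cKO.

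Among the BH3-only genes, the 2 principal p53-induced ones showed small differences. *Bbc3*, which encodes Puma, was at 31.6 and 28.9 CPM in the controls and at 26.6 and 25.4 CPM in *Eya1*cKO, with a log2 fold change of -0.21 (95% interval -0.73 to 0.31). *Pmaip1*, which encodes Noxa, had one of -0.10 (-1.16 to 0.96), from 250 and 304 reads against 146 and 140. *Bcl2l11*, which encodes Bim, was lower in both *Eya1*cKO libraries (log2 fold change -0.32, edgeR adjusted *P* = 0.2). *Bad*, which is held inactive by growth factor signalling, was higher in both, at 42.6 and 29.5 against 21.5 and 20.9 CPM (0.79, edgeR adjusted *P* = 0.1), and 20.5% of its exonic length lies opposite another gene. *Bid*, the link from caspase 8 to mitochondria, had a log2 fold change of 0.20, and *Bmf* of 0.06 with *Eya1*cKO libraries on both sides of the controls. *Bik* was at 1.92 and 0.961 CPM in the controls and at 0.708 and 2.05 CPM in *Eya1*cKO. *Hrk*, a BH3-only gene best known from neurons, had 38 and 34 reads in the controls and 0 and 1 in *Eya1*cKO. Its reads per library size were 39.9-fold higher in the controls. The counting interval of this ratio, from 6.94 to 1600, leaves out the spread between libraries. *Hrk* entered the test through the controls alone, and the difference did not pass (edgeR adjusted *P* = 0.12).

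On the receptor side, none of the 3 death receptors tested passed, and 2 of them, *Tnfrsf1a* and *Eda2r*, had an unadjusted *P* under 0.05 (28.8% over all genes); none of the 4 receptor genes passed in DESeq2's test. *Tnfrsf1a*, the main receptor of TNF, was at 63.8 and 69.7 CPM in the controls and at 81 and 91.6 CPM in *Eya1*cKO. Both *Eya1*cKO libraries were above the controls, with a log2 fold change of 0.36 (95% interval 0.03 to 0.69, edgeR adjusted *P* = 0.15). *Tnfrsf10b*, the mouse TRAIL receptor, was also higher in both, at 29.7 and 26.3 against 21.3 and 21.3 CPM (0.40, edgeR adjusted *P* = 0.3). *Eda2r*, the X-linked receptor of ectodysplasin A2 and a p53 target, was at few reads, with 67 and 56 in the controls and 6 and 0 in *Eya1*cKO (-3.47, edgeR adjusted *P* = 0.13). Its log2 fold change was -8.68 without *Eya1*cKO 1 and -2.68 without *Eya1*cKO 2. *Fas* was the member left out by the filter, with 2 and 5 reads in the controls and 0 and 26 in *Eya1*cKO, so that all of its *Eya1*cKO reads came from 1 library.

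Of the 8 receptor adaptors and regulators, *Ripk1* rose, *Traf1* fell and 6 did not pass, where 5.15% of all genes rose and 4.41% fell. *Ripk1* (chromosome 13, 34002363 to 34037147), the kinase that TNF receptor 1 recruits and that can direct a cell to NF-κB, apoptosis or necroptosis, was at 39.1 and 38.2 CPM in the controls and at 73.9 and 81.2 CPM in *Eya1*cKO. The genotypes were well apart, with a log2 fold change of 1.0 ± 0.15 (SE; edgeR adjusted *P* = 0.011). Alternatives on all 4 libraries gave adjusted *P* values from 6.3e-06 to 0.062, and the call was lost only with the replicate block. A processed pseudogene on the same strand shares 6.12% of the exonic length of *Ripk1*, which leaves its count uncertain to that extent. *Traf1* (chromosome 2, 34941750 to 34961772), an NF-κB-induced adaptor that restrains TNF-driven death, had 598 and 596 reads against 72 and 1, that is 17.1 and 15.9 against 3.19 and 0.057 CPM. The 2 *Eya1*cKO libraries were both lower but far from each other (log2 fold change -3.18 ± 0.67 SE, edgeR adjusted *P* = 0.031), and the value was -2.39 without *Eya1*cKO 2 and -8.09 without *Eya1*cKO 1. The call was kept in 5 of the 8 alternatives on all 4 libraries that tested it, with adjusted *P* values from 0.021 to 0.20.

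The other Traf genes were nearer to equal between genotypes. *Traf4*, a developmental member of the family, was at 208 and 213 CPM in the controls and at 216 and 176 CPM in *Eya1*cKO. *Traf3*, which degrades the NF-κB-inducing kinase, had a log2 fold change of 0.04 (95% interval -0.27 to 0.36), and *Traf2*, the core adaptor of TNF receptor 1, one of -0.41 (-0.97 to 0.15). *Cflar*, which encodes the caspase 8 inhibitor c-FLIP, was at 38.7 and 40 CPM in the controls and at 47.9 and 70.5 CPM in *Eya1*cKO, above the controls in both libraries without passing (0.56, edgeR adjusted *P* = 0.14). *Fadd*, a death domain adaptor, was at 12.9 and 14.6 CPM in the controls and at 13.7 and 23.5 CPM in *Eya1*cKO (0.38, 95% interval -0.46 to 1.23). *Tradd*, the adaptor of TNF receptor 1, was at 5.04 and 5.58 against 12.9 and 2.91 CPM, so that its *Eya1*cKO libraries lay on both sides of the controls.

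None of the 4 caspases, the 3 apoptosome and mitochondrial factors and the 3 inhibitor of apoptosis genes passed, 1 of the 10 (*Birc2*) had an unadjusted *P* under 0.05 where 28.8% of all genes did, and none of them passed in DESeq2's test. *Casp2*, a caspase activated after DNA damage, was lower in both *Eya1*cKO libraries (80.6 and 51.5 against 98.6 and 86.6 CPM). *Casp8*, the initiator at death receptors, was slightly higher in both (38.5 and 31.3 against 28.9 and 27.1 CPM). *Casp9*, the initiator of the mitochondrial route, was at 46.7 and 17.5 CPM in *Eya1*cKO against 27.4 and 26.3 CPM in the controls, so that the *Eya1*cKO libraries lay on both sides of the controls. *Casp6*, an executioner, had a log2 fold change of 0.15 (95% interval -0.35 to 0.66).

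*Apaf1*, the scaffold of the apoptosome, was at 60.7 and 64.8 CPM in the controls and at 73.3 and 76.1 CPM in *Eya1*cKO. *Cycs*, which encodes cytochrome *c* and has processed copies in the genome that make its count uncertain, had a log2 fold change of -0.39 (95% interval -0.97 to 0.19), and *Diablo*, which relieves caspase inhibition, one of 0.13 (-0.32 to 0.58). The *Diablo* count is uncertain as well, since other genes share 19.3% of its exonic length on the same strand and 21.5% on the opposite one. The caspase inhibitor *Xiap* had a value of 0.27 (-0.07 to 0.61). *Birc2*, which encodes the ubiquitin ligase cIAP1 of the TNF receptor complex, was at 57 and 52.6 CPM in the controls and at 85.3 and 64.3 CPM in *Eya1*cKO (0.47, edgeR adjusted *P* = 0.14), and its neighbour *Birc3* was at 9.11 and 5.13 against 7.04 and 4.16 CPM.

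*Nfkbia*, the inhibitor IκBα that NF-κB induces as feedback, was at 58.1 and 68.5 CPM in the controls and at 69 and 66.2 CPM in *Eya1*cKO, which gave a log2 difference of 0.09 (95% interval -0.27 to 0.46). *Cd274*, the immune checkpoint ligand PD-L1, was at 1.57 and 1.42 CPM in the controls and at 5.09 and 9.35 CPM in *Eya1*cKO. It was higher in both libraries and had the largest positive log2 fold change of the members tested, 2.22 with a 95% interval from 0.62 to 3.82, without passing (edgeR adjusted *P* = 0.09). It passed in DESeq2's test and with at least 10 counts in every library, and 14.1% of its exonic length lies opposite an antisense gene.

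The libraries of one genotype were less alike in *Eya1*cKO than in the controls. Of the 49 members, 1 differed more than 2-fold between the control libraries and 11 between the *Eya1*cKO libraries, against 12.4% and 34.4% of all genes tested. Of these 11, 8 had a mean below 10 CPM, as the plot of spread against level shows. Among members over 10 CPM the counts were 0 and 3 of 38 (*Cdkn1a*, *Aen* and *Casp9*), against 0.192% and 9.09% of all genes at that level. The 5 members *Trp63*, *Trp73*, *Hrk*, *Eda2r* and *Traf1* were above the filter limit of 0.347 CPM in both libraries of only 1 genotype, and *Traf1* was the one among them that passed. *Trp73*, *Hrk*, *Eda2r* and *Traf1* entered the test through the genotype in which their mean is higher, and *Trp63* through the one in which it is lower.

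**Figure D4:**
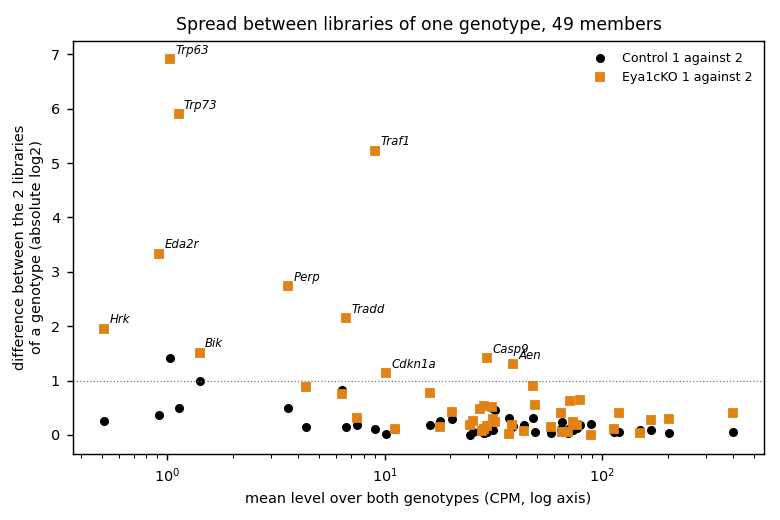
Absolute log2 difference between the 2 libraries of a genotype against the mean level in CPM (log axis) for the 49 members; black points are controls and orange squares *Eya1*cKO, and the dotted line marks a 2-fold difference. The 11 named squares above the line are mostly at low level, with *Casp9* and *Aen* the exceptions over 20 CPM.

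Beyond the members, 76 further genes of the same pathways were listed, and 72 could be tested. Of these 5 rose and 4 fell (12.5% of those tested, against 9.56% of all genes), and their median log2 fold change was 0.01. Among 20 further p53 targets, 4 rose in edgeR's test, and of 4 others with an unadjusted *P* under 0.05, *Polk* and *Plk2* were higher and *Gtse1* and *Pidd1* lower. Over all genes 5.15% rose, and 28.8% had an unadjusted *P* under 0.05. *Gadd45a*, a stress-induced growth arrest gene, went from 33.8 ± 0.366 to 66.8 ± 3.74 CPM (SD, n = 2 libraries each), a log2 fold change of 0.99 (edgeR adjusted *P* = 0.014). *Trp53inp1*, which promotes autophagy and cell death, had one of 1.03 (edgeR adjusted *P* = 0.021). The other two were *Ei24*, an endoplasmic reticulum protein (0.55), and *Ccng1*, a cyclin that engages the Mdm2 pathway (0.69).

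Of 13 TNF family ligands and other receptors tested, 1 passed, against 9.56% of all genes. This was *Ngfr*, the low-affinity neurotrophin receptor, which fell from 118 ± 1.17 to 73.2 ± 7.71 CPM (log2 fold change -0.69, edgeR adjusted *P* = 0.021). *Fasl* had no read in any library, which 3 counts bound at 0.0801 to 0.171 CPM per library. Of 19 genes between the TNF receptor and NF-κB, 1 passed, against the same 9.56%. *Mlkl*, the pore-forming executor of necroptosis, had 19 and 19 reads in the controls and 139 and 77 in *Eya1*cKO, which gave a log2 difference of 3.35 ± 0.76 (SE; edgeR adjusted *P* = 0.034). Its upstream kinase *Ripk3* had 800 and 897 against 589 and 400 reads and a log2 fold change of 0.07. Of 20 other apoptosis regulators, 3 fell, where 4.41% of all genes fell, namely *Parp1*, a DNA break sensor cleaved by caspases (-0.55, edgeR adjusted *P* = 0.006), *Birc5*, the mitotic inhibitor of apoptosis protein survivin (-0.76, edgeR adjusted *P* = 0.019), and *Bcl2l13* (-0.60, edgeR adjusted *P* = 0.037). Exons of *Bcl2l13* overlap those of *Bid* on the opposite strand. In these 3 lists, the genes with an unadjusted *P* under 0.05 that did not pass were *Casp4* (2.02) and *Casp12* (1.69), which were higher, and *Edar*, *Map3k7* and *Bag1*, which were lower. *Edar* had 68 and 33 reads in the controls and 0 and 0 in *Eya1*cKO. It entered the test through the controls alone and could only come out lower.

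**Figure D5:**
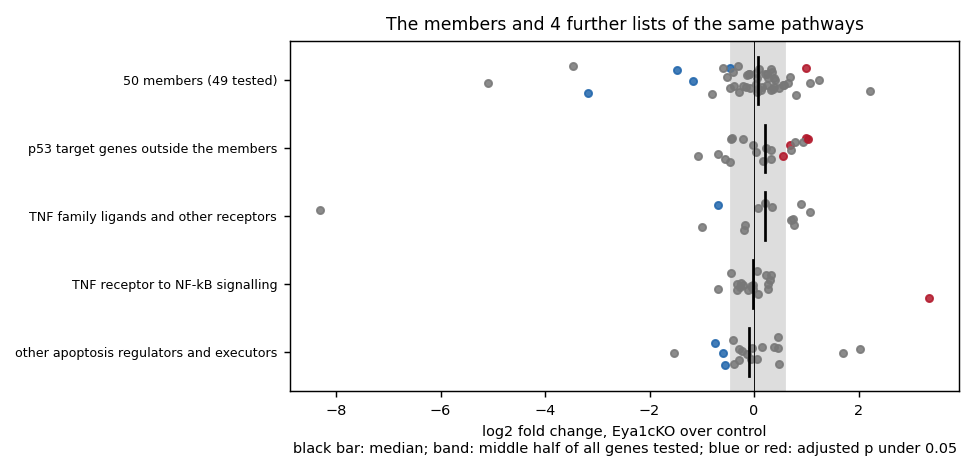
Log2 fold change (*Eya1*cKO over control) of the members and of 4 further lists, with each list's median as a black bar and the interquartile range of all genes tested as a grey band; blue and red mark genes past the threshold. The medians of the 5 lists lie between -0.10 and 0.21, inside the band.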

How the data were processed

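Poly(A) RNA of the sorted cells was sequenced, with 2 libraries for each genotype. The authors aligned single-end reads to mm10 with HISAT2 and deposited raw read counts per Ensembl gene from HTSeq-count. Tool versions and the strand setting of the counting are not given in the sources used here, so reads of genes that overlap on opposite strands may not be separable. Rows that name no gene held 31.8% to 46.1% of recorded reads and were left out.

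The 4 libraries were fitted together with edgeR 4.0.16 (R 4.3.3; TMM, filterByExpr with a minimum count of 10, quasi-likelihood F test of genotype), with Benjamini-Hochberg adjustment over 19041 genes and a threshold of 0.05. The code was tested on simulated data. Exonic lengths and coordinates came from GENCODE M21 (GRCm38, the same build), and promoters from RefSeq. DESeq2 1.42.0, other scalings and filters, the replicate block, thinned counts and the leaving out of each library were run as alternatives.

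The members, their roles and the other lists were chosen with earlier results of these data known. All members are named; of the other lists, the 2 smallest *P* values per direction among genes past the threshold were to be named, and *Ei24*, *Ccng1*, *Gtse1*, *Pidd1*, *Polk*, *Plk2*, *Casp4*, *Casp12*, *Edar*, *Map3k7*, *Bag1*, *Ripk3*, *Fasl* and *Bcl2l13* were added after their values were seen. CPM values with ± are mean ± SD, and the interval of the *Hrk* ratio covers counting error only.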

Additional observations from a re-analysis of the deposited data

How the results depend on the processing

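The 5 calls among the members were kept with DESeq2's size factors, with library totals alone and with robust fitting, and none of the 49 members changed direction under those of the 9 alternatives on all 4 libraries that gave it a value; with at least 10 counts in every library, *Trp63*, *Trp73*, *Hrk*, *Eda2r* and *Traf1* had none. The count of members called was 2 of 50 with no filter on low counts (*Bcl2*, *Ripk1*). It was 3 of 49 with the legacy quasi-likelihood fit, 3 of 49 with control counts thinned to *Eya1*cKO depth and 1 of 49 with the replicate block. Those lower were 1, 2, 2 and 1 in this order, and those higher 0 with the block. With at least 10 counts in every library 6 of 44 members passed, and in DESeq2's Wald test 7 members did. In each of these fits 3 members were higher (*Ripk1*, *Bcl2l2*, *Cd274*). The other pathway genes called were 5 with no filter, 5 with the legacy fit and 1 with the replicate block. Over all genes the calls were 1820 of 19041, against 1055 of 31192 with no filter, 1096 of 19041 with the legacy fit and 621 of 19041 with the replicate block. They were 1267 of 18024 with thinned control counts and 2243 of 14490 with at least 10 counts in every library. DESeq2 called 3113 of 19535 genes. Libraries of the same number shared only a number: their deviations correlated at 0.0062 over 19041 genes. Leaving out a library leaves a genotype with 1 library, which is then assumed to vary like the other genotype. Genes tested in these fits were 21146 and 21355 without control 1 and 2, and 22134 and 22440 without *Eya1*cKO 1 and 2. Members tested were 50, or 49 without *Eya1*cKO 2. Members called then ranged from 0 to 20 (higher 0 to 11, lower 0 to 11), other pathway genes called from 0 to 33 and the median log2 fold change of the members from 0.0229 to 0.128, with 23 genes called in all without either control and 7414 and 7925 without *Eya1*cKO 1 and 2. The cause was not tested.

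Members whose log2 fold change changed sign when 1 library was left out had not passed in the full fit. Their values ranged from -0.0213 to 0.0738 for *Mdm2*, -0.0912 to 0.19 for *Mdm4*, -7.55 to 1.82 for *Trp63*, -8.42 to 0.22 for *Trp73*, -0.24 to 0.90 for *Cdkn1a*, -0.86 to 1.90 for *Perp*, -1.26 to 0.0497 for *Aen*, -0.33 to 0.28 for *Bcl2l1*, -0.30 to 0.0948 for *Mcl1*, -0.26 to 0.0489 for *Pmaip1*, -1.02 to 0.52 for *Bik*, -0.51 to 0.38 for *Bmf*, -0.0293 to 0.76 for *Fadd*, -0.88 to 1.26 for *Tradd*, -0.0744 to 0.12 for *Traf3*, -0.27 to 0.0235 for *Traf4*, -0.63 to 0.78 for *Casp9*, -0.77 to 0.15 for *Birc3* and -0.0384 to 0.21 for *Nfkbia*. The 95% intervals of 20 of the 44 members that did not pass reached a 2-fold difference, at low and at higher counts, and the cause was not tested.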
